A study of Mus musculus with 2 samples.

Results

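Gata1, Klf1, Tal1, Alas2, Hmox1, Tspo2, Slc4a1, Tfrc and Bpgm are 9 genes of red blood cell formation, found by symbol among the 32285 genes of 2 single-cell RNA libraries from mouse hearts at stage E10.5. The library labelled knockout came from BubR1fl/fl hearts and the library labelled wildtype from BubR1+/+ hearts, and both pools carried 1 copy of Nkx2.5-cre. Each library pooled 4 hearts, so animals cannot be told apart, and since each genotype had a lone library no difference could be checked against replicates or tested. Nkx2.5-cre acts in cardiac progenitors and their descendants, and blood cells are not known as its main target. Genes were followed in droplet barcodes with at least 3000 UMIs (unique molecular identifiers, each standing for 1 captured RNA) and at most 20% mitochondrial UMIs. Barcodes with at least 20% of UMIs on the 8 hemoglobin genes were called erythroid and divided by that share into bins of 20 to 40%, 40 to 65%, 65 to 85% and over 85%.

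At this stage most circulating red cells are primitive erythroid cells, which leave the yolk sac still nucleated and mature in the bloodstream while they fill with hemoglobin. Gata1, Klf1 and Tal1 encode transcription factors that switch on globin, heme and membrane genes in this lineage. Alas2 encodes the erythroid enzyme of the first step of heme synthesis, Hmox1 encodes heme oxygenase, which breaks heme down, and Tspo2 encodes an erythroid relative of the translocator protein, a membrane protein linked to porphyrin and cholesterol handling. Slc4a1 encodes band 3, the anion exchanger that anchors the membrane skeleton, and Tfrc encodes the transferrin receptor, through which erythroid cells take up iron. Bpgm encodes the mutase that makes 2,3-bisphosphoglycerate, the red cell regulator of oxygen release.

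Gata1 itself binds the letters GATA in a short context, so the promoters in which such letters stand are shown first. Sequences were read from RefSeq windows of build GRCm38.p6, 250 bases each, some of which run past an annotated start of the gene. A window existed for 7 of the 9 genes. The letters searched were AGATAA or AGATAG or TGATAA or TGATAG for the GATA motif and CCNCNCCC for the CACC-box motif bound by Klf1, both on either strand. Of the 7 genes with a window, 3 held a GATA motif (Klf1, Tal1 and Alas2) and 6 held a CACC motif, while 26.5% and 45.9% of all 32851 windows held them. These counts took the whole 250 bases and were made per gene, with 2 windows each for Tal1 and Tfrc, unlike the share of all windows. Once windows were cut to end before every annotated start, CACC matches went from 4 to 0 in Alas2 and from 1 to 0 in Bpgm. Only Tspo2 and Tfrc held a CACC motif in a cut window. In the windows below, cut to end before every annotated start, capitals mark the GATA motif, which in all 3 reads on the minus strand.

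Klf1 promoter, chr8:84901732-84901927, plus strand: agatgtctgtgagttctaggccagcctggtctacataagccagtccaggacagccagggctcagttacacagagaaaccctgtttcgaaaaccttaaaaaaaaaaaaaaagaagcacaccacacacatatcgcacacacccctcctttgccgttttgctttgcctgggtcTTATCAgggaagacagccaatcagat

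Tal1 promoter, chr4:115056176-115056425, plus strand: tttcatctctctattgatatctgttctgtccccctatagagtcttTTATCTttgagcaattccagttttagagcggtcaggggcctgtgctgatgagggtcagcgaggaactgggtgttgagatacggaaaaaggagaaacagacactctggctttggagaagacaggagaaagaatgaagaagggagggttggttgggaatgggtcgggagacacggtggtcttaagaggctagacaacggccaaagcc

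Alas2 promoter, chrX:150547167-150547374, plus strand: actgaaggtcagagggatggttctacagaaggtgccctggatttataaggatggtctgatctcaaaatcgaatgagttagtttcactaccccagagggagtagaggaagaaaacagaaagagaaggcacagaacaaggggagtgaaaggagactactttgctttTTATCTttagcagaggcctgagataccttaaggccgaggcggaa

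A match is a description of letters and not a measured binding site.

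On build mm10 the transcription factor genes lie on chromosome X from 7959260 to 7978071 (Gata1, minus strand), on chromosome 8 from 84901928 to 84905291 (Klf1, plus) and on chromosome 4 from 115056426 to 115071755 (Tal1, plus). Alas2 lies on chromosome X from 150547375 to 150570638 (plus), Hmox1 on chromosome 8 from 75093621 to 75100589 (plus) and Tspo2 on chromosome 17 from 48447907 to 48451522 (minus). Slc4a1 lies on chromosome 11 from 102348824 to 102366203 (minus), Tfrc on chromosome 16 from 32608920 to 32632794 (plus) and Bpgm on chromosome 6 from 34476207 to 34505613 (plus). Of the 9 genes, only Alas2 is overlapped by other annotated genes, Apex2 and Mir3620 on the opposite strand.

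The libraries filled different hemoglobin bins. Of 5969 barcodes kept from the library labelled knockout, 1169 were erythroid, 180 at 20 to 40%, 985 at 40 to 65%, and 2 each at 65 to 85% and over 85%. Of 11079 kept from the library labelled wildtype, 5840 were erythroid, and the same bins held 313, 239, 1447 and 3841. The median hemoglobin share of erythroid barcodes was 48.0% against 87.1%, with medians of 20653 against 7608 UMIs and 2725 against 412 genes. Between the kept barcodes of both libraries 11 barcode sequences were shared, 0 of them erythroid in the library labelled knockout. Bub1b, which encodes BubR1, had 393 UMIs in 607 cardiomyocyte-gated barcodes labelled knockout, or 31.1 CPM, and 579 in 629 labelled wildtype, or 57.9 CPM. It went the other way in erythroid barcodes, at 33.2 against 7.62 CPM, and over all kept barcodes, at 40.8 against 25.9. CPM is a gene's UMI count scaled to a total of 1000000 UMIs, and this gate took barcodes under 20% hemoglobin with at least 1% of UMIs on cardiomyocyte markers. These values check the labels little, since the deleted stretch was not known here and 3' reads may lie outside it.

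**Figure D1:**
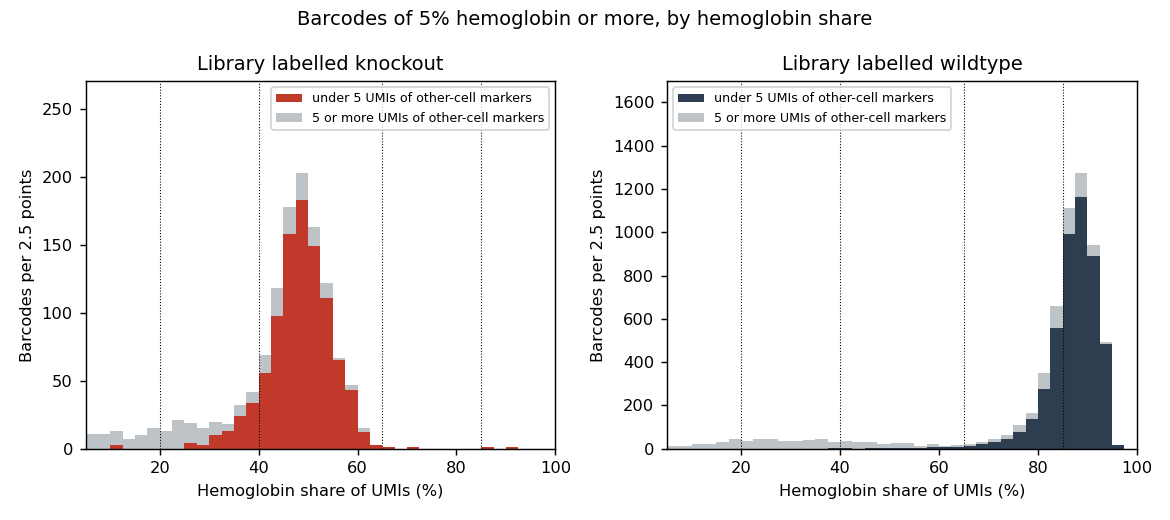
Number of barcodes (vertical axis, per 2.5 percentage points) by hemoglobin share of UMIs (horizontal axis, %) in the library labelled knockout (left) and the library labelled wildtype (right), coloured where they held under 5 UMIs of markers of other cells and grey where they held 5 or more; dotted lines are the bin edges. The coloured knockout barcodes sit mostly between 40 and 65% and the coloured wildtype barcodes mostly over 65%, where the library labelled knockout held 4 barcodes in all.

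Barcodes in the lower bins often carried RNA of other heart cells, and more so in the library labelled wildtype. Of knockout barcodes at 20 to 40% and 40 to 65%, 98.9% and 100% held at least 5 UMIs of 10 erythroid markers outside hemoglobin. In the 4 wildtype bins the shares were 60.4%, 72.4%, 65.8% and 57.4%. These shares were not taken at equal depth. Median depths were 23074 and 20362 UMIs in those knockout bins and 13971, 12240, 7260 and 7300 in the wildtype bins. All 6 mesenchymal markers were detected at 20 to 40% and at 40 to 65% in both libraries, and summed to 329 and 9.97 CPM in the library labelled knockout, against 2045 and 1303 in the library labelled wildtype. All 8 cardiomyocyte markers were also detected there, at 1388 and 72.6 CPM labelled knockout and 3503 and 958.7 labelled wildtype. The 10 erythroid markers were all present in both bins, at 3408 and 4022 CPM labelled knockout against 730.2 and 1238 labelled wildtype. Of the macrophage markers, C1qa was at 0 in both knockout bins and all 6 were present in both wildtype bins. Under 5 UMIs of such markers of other cells were found in 88 and 878 knockout barcodes of these bins (48.9% and 89.1%), against 4 and 39 wildtype barcodes (1.28% and 16.3%). Ratios at 40 to 65% are therefore given with and without barcodes that carried 5 or more, a choice made after the data were seen, while the 4 wildtype barcodes left at 20 to 40% were too few for a ratio. Without them, cardiomyocyte markers at 40 to 65% still stood at 44.6 CPM labelled knockout and 192.4 labelled wildtype, and mesenchymal markers at 8.49 and 36.1. Of the lists used for this limit, only liver markers went the other way, at 2.96 and 0. Blood progenitor markers, which this limit does not use, also did, at 100.5 labelled knockout and 72.2 labelled wildtype. The limit is a count, while median depths in the whole bin were 20362 and 12240 UMIs. Median depths of only the barcodes left at 40 to 65% are not given here. Over all erythroid barcodes under the limit, median depths were 19942 labelled knockout and 7190 labelled wildtype. The part of these differences in the ratios was not tested. Levels by bin are CPM over all barcodes summed, unless stated otherwise. Square brackets are exact 95% intervals (Poisson for levels, conditional binomial for ratios, Clopper-Pearson for shares), all for counting error only.

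Gata1, the factor on which the lineage depends, was higher in the library labelled knockout in both bins that could be compared when every barcode was taken. Its level was 77.1 CPM [69.1, 85.9] at 20 to 40% and 75.0 [71.4, 78.8] at 40 to 65% in the library labelled knockout (333 and 1573 UMIs). In the library labelled wildtype it was 3.74 [2.18, 5.98], 8.32 [5.39, 12.3], 7.98 [6.44, 9.78] and 3.29 [2.69, 3.99] in the 4 bins from low to high (17, 25, 93 and 103 UMIs). Every wildtype bin lay below both knockout bins. The log2 ratio was 4.37 [3.67, 5.16] at 20 to 40% and 3.17 [2.60, 3.80] at 40 to 65%. Without barcodes carrying markers of other cells, the 40 to 65% levels were 76.0 in 878 knockout barcodes and 60.1 in 39 wildtype barcodes (15 UMIs), a log2 ratio of 0.34 [-0.39, 1.18], an interval that holds 0.

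Klf1, the erythroid factor needed for globin and many membrane genes, followed the pattern of Gata1. It stood at 91.0 CPM [82.2, 100.5] at 20 to 40% and 95.7 [91.6, 100] at 40 to 65% in the library labelled knockout. In the library labelled wildtype it stood at 6.15, 13.0, 9.87 and 2.84 in the 4 bins, from 28, 39, 115 and 89 UMIs. The log2 ratios were 3.89 [3.33, 4.50] and 2.88 [2.43, 3.38]. With barcodes carrying markers of other cells left out, the ratio at 40 to 65% was 0.99 [0.18, 1.94], on 1740 UMIs labelled knockout and 12 labelled wildtype.

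Tal1, which also works in blood progenitors, megakaryocytes and endothelium, overlapped between the libraries. It stood at 92.4 and 109.0 CPM at 20 to 40% and 40 to 65% in the library labelled knockout, and at 47.0, 87.9, 108.4 and 57.4 in the 4 wildtype bins. Its log2 ratio was 0.97 [0.73, 1.22] at 20 to 40% and 0.31 [0.13, 0.50] at 40 to 65%. Once barcodes with markers of other cells were left out, it changed sign at 40 to 65%, to -1.37 [-1.71, -1.01], with 110.3 CPM labelled knockout against 284.7 labelled wildtype.

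Among the heme genes, Alas2 differed by less than 2-fold in both bins that could be compared. Hmox1 and Tspo2 were nearly absent from erythroid barcodes of the library labelled knockout. Alas2 stood at 363.6 CPM [346, 382] and 463.6 [454, 473] at 20 to 40% and 40 to 65% labelled knockout, and at 222.4, 306.7, 423.9 and 460.0 in the 4 wildtype bins. The highest wildtype bin and the 40 to 65% knockout bin thus had intervals that overlap, at hemoglobin shares far apart. This overlap is on the scale of all UMIs, and over all erythroid barcodes Alas2 depended on the scale, as given below. The log2 ratio was 0.71 [0.59, 0.82] at 20 to 40% and 0.60 [0.50, 0.70] at 40 to 65%, and without barcodes carrying markers of other cells it was -0.11 [-0.37, 0.15] at 40 to 65%.

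Hmox1 stood at 3.94 CPM [2.29, 6.30] at 20 to 40% and 0.525 [0.262, 0.939] at 40 to 65% in the library labelled knockout, from 17 and 11 UMIs. In the library labelled wildtype it stood at 38.0 [32.6, 44.1], 53.3 [45.3, 62.2], 93.9 [88.4, 99.7] and 57.0 [54.4, 59.7], from 173, 160, 1094 and 1783 UMIs. Every wildtype bin lay above both knockout bins. The log2 ratio was -3.27 [-4.08, -2.55] at 20 to 40% and -6.67 [-7.70, -5.79] at 40 to 65%. Without barcodes carrying markers of other cells, it was -8.57 [-9.71, -7.58] at 40 to 65%.

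Tspo2 had 2 UMIs in 180 knockout barcodes at 20 to 40% and 6 UMIs in 985 at 40 to 65%, which is 0.463 CPM [0.0561, 1.67] and 0.286 [0.105, 0.623]. In the library labelled wildtype it stood at 33.2, 51.3, 68.7 and 69.2 in the 4 bins, from 151, 154, 800 and 2164 UMIs. The log2 ratio was -6.16 [-9.22, -4.28] at 20 to 40% and -7.49 [-8.95, -6.33] at 40 to 65%. It was -8.68 [-10.41, -7.29] at 40 to 65% without barcodes carrying markers of other cells. Both genes were thus lower in the library labelled knockout under each of these choices.

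At the membrane, both Tfrc and Slc4a1 depended on which barcodes were taken. Tfrc stood at 291.1 CPM [275, 308] and 322.4 [315, 330] at 20 to 40% and 40 to 65% labelled knockout, against 36.5, 51.6, 35.9 and 9.20 in the 4 wildtype bins. The lowest wildtype value was in the bin with most hemoglobin. The log2 ratios of 3.00 [2.76, 3.24] and 2.64 [2.41, 2.88] in the lower bins stood against 0.05 [-0.28, 0.39] at 40 to 65% without barcodes carrying markers of other cells, where the levels were 319.1 labelled knockout and 308.7 labelled wildtype (77 UMIs). Slc4a1 stood at 343.0 and 409.8 CPM labelled knockout, and at 129.7, 234.1, 329.9 and 169.0 in the wildtype bins. Its log2 ratio was 1.40 [1.26, 1.54] at 20 to 40% and 0.81 [0.70, 0.92] at 40 to 65%, and -0.72 [-0.94, -0.49] at 40 to 65% without barcodes carrying markers of other cells.

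With every barcode taken, Bpgm was at similar levels in both knockout bins and higher in each successive wildtype bin. It stood at 259.6 CPM [245, 275] and 260.9 [254, 268] labelled knockout, and at 289.4, 418.2, 605.6 and 668.2 in the 4 wildtype bins. The log2 ratio was -0.16 [-0.27, -0.04] at 20 to 40% and -0.68 [-0.77, -0.59] at 40 to 65%. At 20 to 40% its sign turned, to 0.41 [0.22, 0.60] with doublet scores removed, 0.27 [0.16, 0.39] relative to the median gene and 0.09 [-0.06, 0.24] with free RNA subtracted. Without barcodes carrying markers of other cells it was -1.39 [-1.61, -1.16] at 40 to 65%. In the knockout barcodes left, Bpgm stood at 382.3 CPM at 20 to 40% (88 barcodes) and 256.7 at 40 to 65%. In these barcodes Gata1, Klf1, Tal1, Alas2, Slc4a1 and Tfrc were also higher at 20 to 40%, with Alas2 at 523.1 against 463.1. Hmox1 and Tspo2 had 3 and 0 UMIs in those at 20 to 40%.

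**Figure D2:**
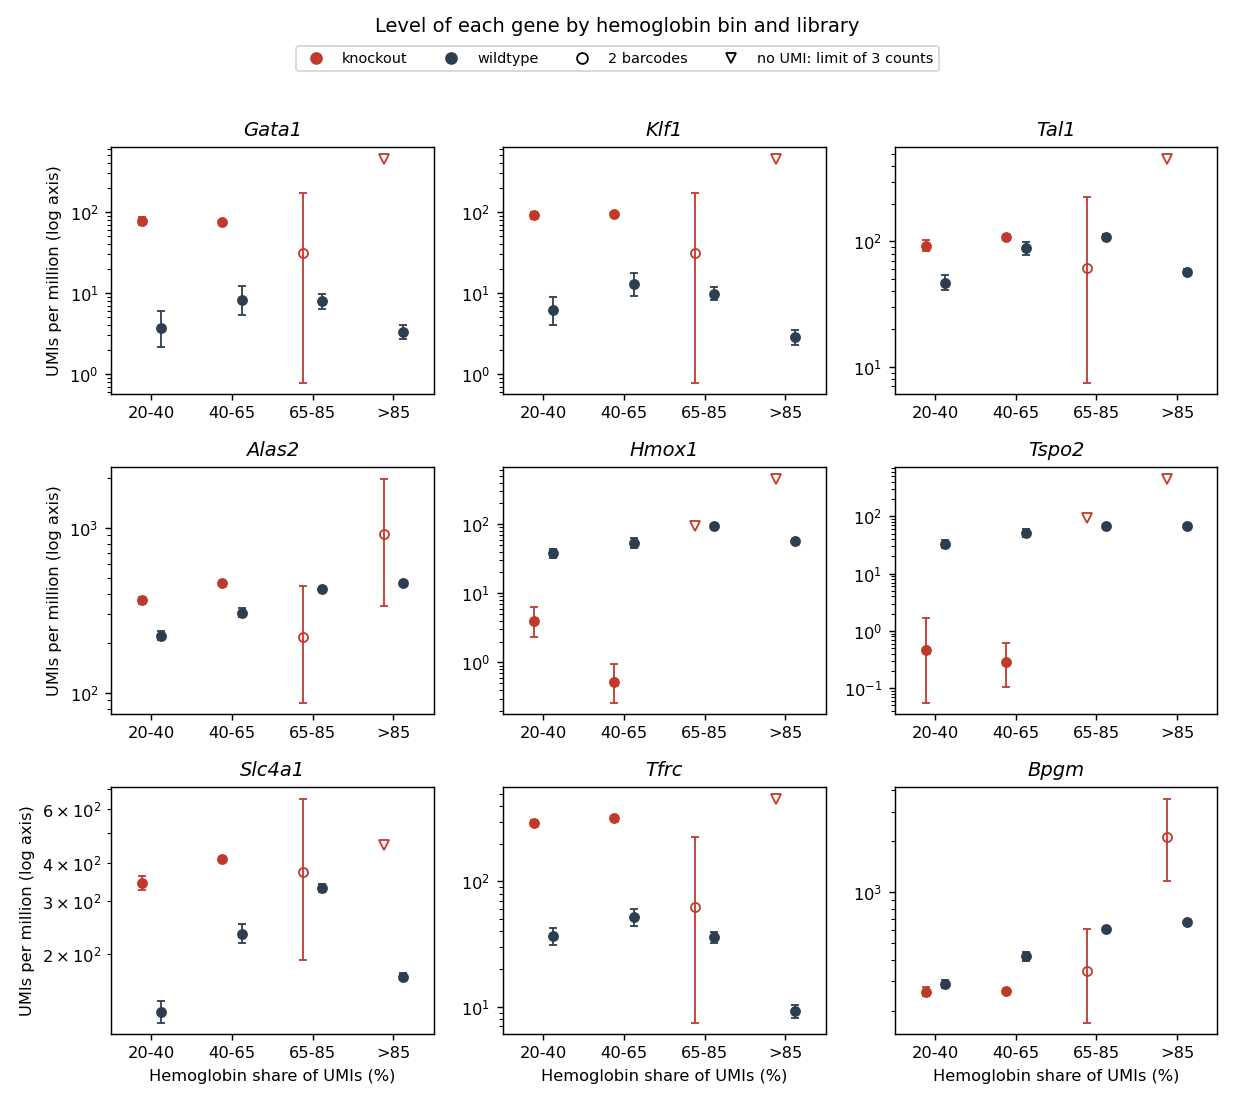
CPM of all UMIs (vertical axis, log scale) of each of the 9 genes by hemoglobin bin (horizontal axis, %), knockout in red left of wildtype in blue, with 95% Poisson intervals; open circles rest on 2 barcodes and open triangles mark no UMI, drawn at the limit of 3 counts. Gata1, Klf1 and Tfrc show the knockout points above every wildtype point, and Hmox1 and Tspo2 show them below, in the bins with more than 2 barcodes of each library.

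The knockout bins over 65% could not be compared. They held 2 barcodes each, with 7 and 6 UMIs of Alas2, 11 and 14 of Bpgm and 12 and 0 of Slc4a1. Hmox1 and Tspo2 had 0 UMIs in all 4 barcodes, which allows up to 93.0 CPM at 65 to 85% and 457.5 over 85%. These limits lie near or above the wildtype levels, so a difference was not detectable at this depth.

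At least 2-fold higher in the library labelled knockout were 4 of the 9 genes at 20 to 40% (Gata1, Klf1, Slc4a1 and Tfrc), beside 5.3% of the 12103 genes with at least 20 UMIs there. At least 2-fold lower were 2 (Hmox1 and Tspo2), beside 28.5% of all genes. At 40 to 65% 3 were higher (Gata1, Klf1 and Tfrc), beside 9.72% of 11626 genes, and the same 2 were lower, beside 42.0%. The median of the 9 log2 ratios was 0.97 at 20 to 40% and 0.60 at 40 to 65%, with the median of all genes at -0.43 and -0.67. In barcodes with under 5 UMIs of markers of other cells, 0 of the 9 were at least 2-fold higher at 40 to 65%. There 4 were lower (Tal1, Hmox1, Tspo2 and Bpgm), beside 15.1% higher and 27.8% lower of 9550 genes. There the median of the 9 was -0.72, with all genes at -0.26, and the wildtype side rested on 39 barcodes. The marker levels given above moved with the lower bins, and their part in the difference between both sets of values was not tested.

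Because so few wildtype barcodes with low hemoglobin held under 5 UMIs of markers of other cells, all erythroid barcodes under this limit were also summed, 970 labelled knockout and 4751 labelled wildtype. Cardiomyocyte markers still stood in them at 45.4 against 119.4 CPM of all UMIs, and liver markers at 3.05 against 0.0789. Blood progenitor markers stood at 106.2 against 3.21. The cardiomyocyte values came from 893 and 4542 UMIs. UMIs outside hemoglobin numbered 10137026 and 4988194, so the cardiomyocyte gap is wider on that scale. In these sums the hemoglobin share differed, with medians of 48.7% against 87.9%, as did the UMIs outside hemoglobin, with medians of 10163.5 against 887 per barcode, and mitochondrial UMIs, at 2.49% against 1.26% of all UMIs and, in the reverse direction, 4.83% against 9.65% of UMIs outside hemoglobin. Their part in the ratios was not tested. A CPM of all UMIs is lower where hemoglobin takes more of the total, so CPM were also taken of UMIs outside hemoglobin. The median gene had a log2 ratio of 2.55 on the scale of all UMIs and 0.57 outside hemoglobin.

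On both scales Gata1, Klf1 and Tfrc were higher in the library labelled knockout, and Hmox1, Tspo2 and Bpgm were lower. Gata1 stood at 79.3 against 5.15 CPM of all UMIs (log2 ratio 3.94 [3.73, 4.17]), and at 153.8 against 39.3 outside hemoglobin (1.97 [1.75, 2.19]). Klf1 stood at 97.4 against 5.15 per all UMIs (4.24 [4.03, 4.46]) and 189.0 against 39.3 outside hemoglobin (2.27 [2.05, 2.49]). Tfrc stood at 327.7 against 19.3 (4.08 [3.97, 4.20]) and 635.8 against 147.3 (2.11 [1.999, 2.22]). Relative to the median gene, the log2 ratios of these 3 were 1.40, 1.69 and 1.54.

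Hmox1 had 13 UMIs in the 970 knockout barcodes and 2579 in the 4751 wildtype barcodes, or 0.661 against 67.8 CPM of all UMIs, with a log2 ratio of -6.68 [-7.59, -5.90]. Tspo2 had 5 against 2625 UMIs, or 0.254 against 69.0 CPM, with a log2 ratio of -8.08 [-9.71, -6.86]. Outside hemoglobin these ratios were -8.66 [-9.57, -7.88] and -10.06 [-11.68, -8.83]. Bpgm stood at 266.2 against 651.6 per all UMIs (-1.29 [-1.33, -1.25]) and 516.4 against 4969 outside hemoglobin (-3.27 [-3.31, -3.22]).

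The scale decided the sign of the other 3 genes. Tal1 had a log2 ratio of 0.62 [0.54, 0.70] per all UMIs and -1.35 [-1.44, -1.27] outside hemoglobin. Alas2 had 0.05 [0.02, 0.09] and -1.92 [-1.96, -1.89], at 467.0 against 450.5 and 906.0 against 3436 CPM. Slc4a1 had 0.95 [0.90, 0.99] and -1.03 [-1.07, -0.98]. Counted per all UMIs, 3 of the 9 genes were at least 2-fold higher and 3 lower, beside 75.6% and 7.91% of 11359 genes. Counted outside hemoglobin, 3 were higher and 6 lower, beside 39.1% and 24.2%. Per all UMIs the 3 higher genes are thus a smaller share of the 9 than of all genes, and outside hemoglobin their share is near that of all genes.

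**Figure D3:**
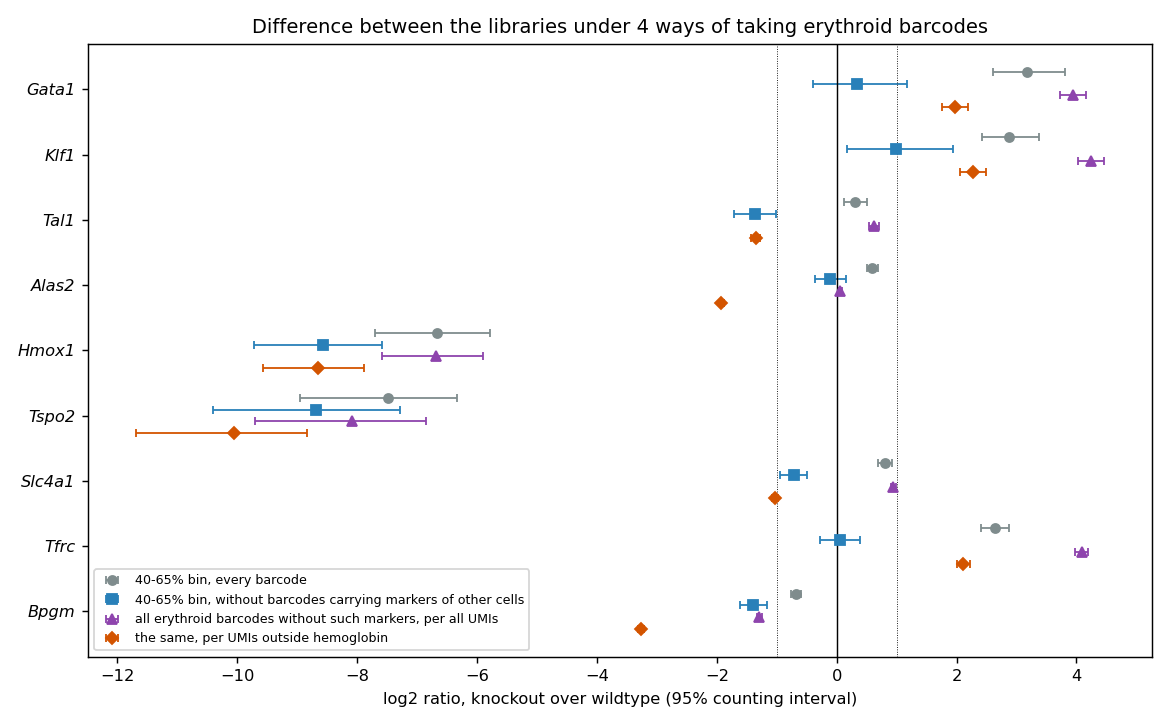
log2 ratio of knockout to wildtype (horizontal axis, with 95% counting intervals) for each of the 9 genes (vertical axis) under 4 ways of taking erythroid barcodes; dotted lines mark 2-fold. Hmox1 and Tspo2 lie left of -5 under all 4, Bpgm lies left of 0 under all 4, and Tal1, Alas2 and Slc4a1 lie on both sides of 0.

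Steps of hemoglobin share, again without barcodes carrying markers of other cells, placed both libraries on one scale. The highest knockout step, 55 to 65% (123 barcodes), and the lowest wildtype step, also 55 to 65% (21 barcodes), had median hemoglobin shares of 57.4% and 60.1%. Their barcodes differed in the number of genes found, with medians of 2164 and 972, and the part of this in the levels was not tested. Outside hemoglobin, Alas2 stood there at 1104 CPM [1039, 1171] labelled knockout and 1256 [971.7, 1598] labelled wildtype. Tfrc stood at 752.7 [699, 809] and 685.3 [480, 949], Gata1 at 144.4 [122, 170] and 114.2 [41.9, 249], and Klf1 at 212.6 [185, 243] and 114.2 [41.9, 249]. For these 4 genes the intervals of both libraries overlap in this step, and the wildtype values of Gata1 and Klf1 rest on 6 UMIs each. Overlap of such wide intervals does not show that the levels are alike, and for Klf1 the ratio over 40 to 65% given above had an interval that leaves out 0.

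The other 5 genes stood apart in the same step. Bpgm was at 412.9 CPM outside hemoglobin [374, 455] labelled knockout and 2132 [1756, 2565] labelled wildtype, and Tal1 at 225.8 [197, 258] and 875.7 [641.1, 1168]. Slc4a1 was at 963.2 [902.8, 1027] and 1485 [1174, 1853]. Hmox1 had 0 UMIs labelled knockout, which allows up to 3.05 CPM outside hemoglobin, and 9 UMIs labelled wildtype, 171.3 [78.3, 325]. Tspo2 had 1 UMI labelled knockout, 1.02 [0.0258, 5.67], and 16 labelled wildtype, 304.6 [174, 495].

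Within the library labelled wildtype the genes went different ways outside hemoglobin as hemoglobin share increased, on a total that is smaller where hemoglobin takes more. Alas2 was higher in each step outside hemoglobin up to 92.5 to 95%, where it reached 9319 CPM, and Bpgm reached 10951 in that step. Tspo2 stood between 304.6 and 410.0 in the 5 steps up to 85 to 87.5%, and at 1034 and 1064 in the steps from 90 to 95%. Tfrc was lower in each successive step, from 685.3 at 55 to 65% to 5.12 (1 UMI) at 92.5 to 95%. Tal1 stood between 522.2 and 875.7 in every step below 90% and at 190.5 and 35.8 in the following steps. Hmox1 was highest at 85 to 87.5%, at 765.2 [717, 815], and stood at 20.5 (4 UMIs) at 92.5 to 95%. Its 948 UMIs at 85 to 87.5% lay in 302 of 990 barcodes (30.5%), so that level does not describe each barcode. Slc4a1 stood between 1599 and 2005 in the steps from 65 to 90% and at 618.9 at 92.5 to 95%. Per all UMIs the course differed. Alas2 stood at 494.8 CPM at 55 to 65%, 374.2 at 85 to 87.5% and 618.1 at 92.5 to 95%, with 3.14, 3.43 and 3.78 UMIs per barcode. Tspo2 stood at 119.9 at 55 to 65% and 56.0 at 85 to 87.5%. Slc4a1 stood at 575.3 at 65 to 75% and 181.2 at 87.5 to 90%.

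Between the wildtype bins of 65 to 85% and over 85%, the log2 ratio of the higher over the lower bin, per all UMIs, was -1.28 [-1.70, -0.86] for Gata1, -1.80 [-2.21, -1.38] for Klf1 and -1.96 [-2.18, -1.74] for Tfrc. Outside hemoglobin the values were -0.50, -1.02 and -1.19. Alas2, Tspo2 and Bpgm were near 0 per all UMIs (0.12, 0.01 and 0.14) and at 0.89, 0.79 and 0.92 outside hemoglobin. Barcodes over 85% were mostly poor in genes, and 2855 of 3546 without other markers held under 500. Those had lower Tal1 per all UMIs than the 691 barcodes with more genes (43.6 against 87.2), lower Slc4a1 (138.0 against 237.4) and lower Hmox1 (47.4 against 77.7), with higher Alas2 (507.3 against 355.7), Tspo2 (78.8 against 45.2) and Bpgm (726.2 against 542.6).

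Within the library labelled knockout the genes given here varied less outside hemoglobin, over a narrower range of hemoglobin share. The knockout steps ended at 65%, while the wildtype steps began at 55% and reached shares where few UMIs lie outside hemoglobin. From the step at 30 to 40% to that at 55 to 65%, Alas2 outside hemoglobin was 841.1, 800.4, 873.2, 988.4 and 1104 CPM. Bpgm was 595.8, 573.0, 519.0, 475.6 and 412.9 in these steps, so that it was lower with more hemoglobin, also per all UMIs (378.4 at 30 to 40% and 174.9 at 55 to 65%). Labelled wildtype, Bpgm was higher with more hemoglobin on the scale outside hemoglobin, while per all UMIs it stood at 839.6 at 55 to 65% and 726.3 at 92.5 to 95%. The contrast was not tested. Tal1 stayed between 211.7 and 225.8, Gata1 between 135.0 and 192.0 and Klf1 between 177.7 and 212.6.

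**Figure D4:**
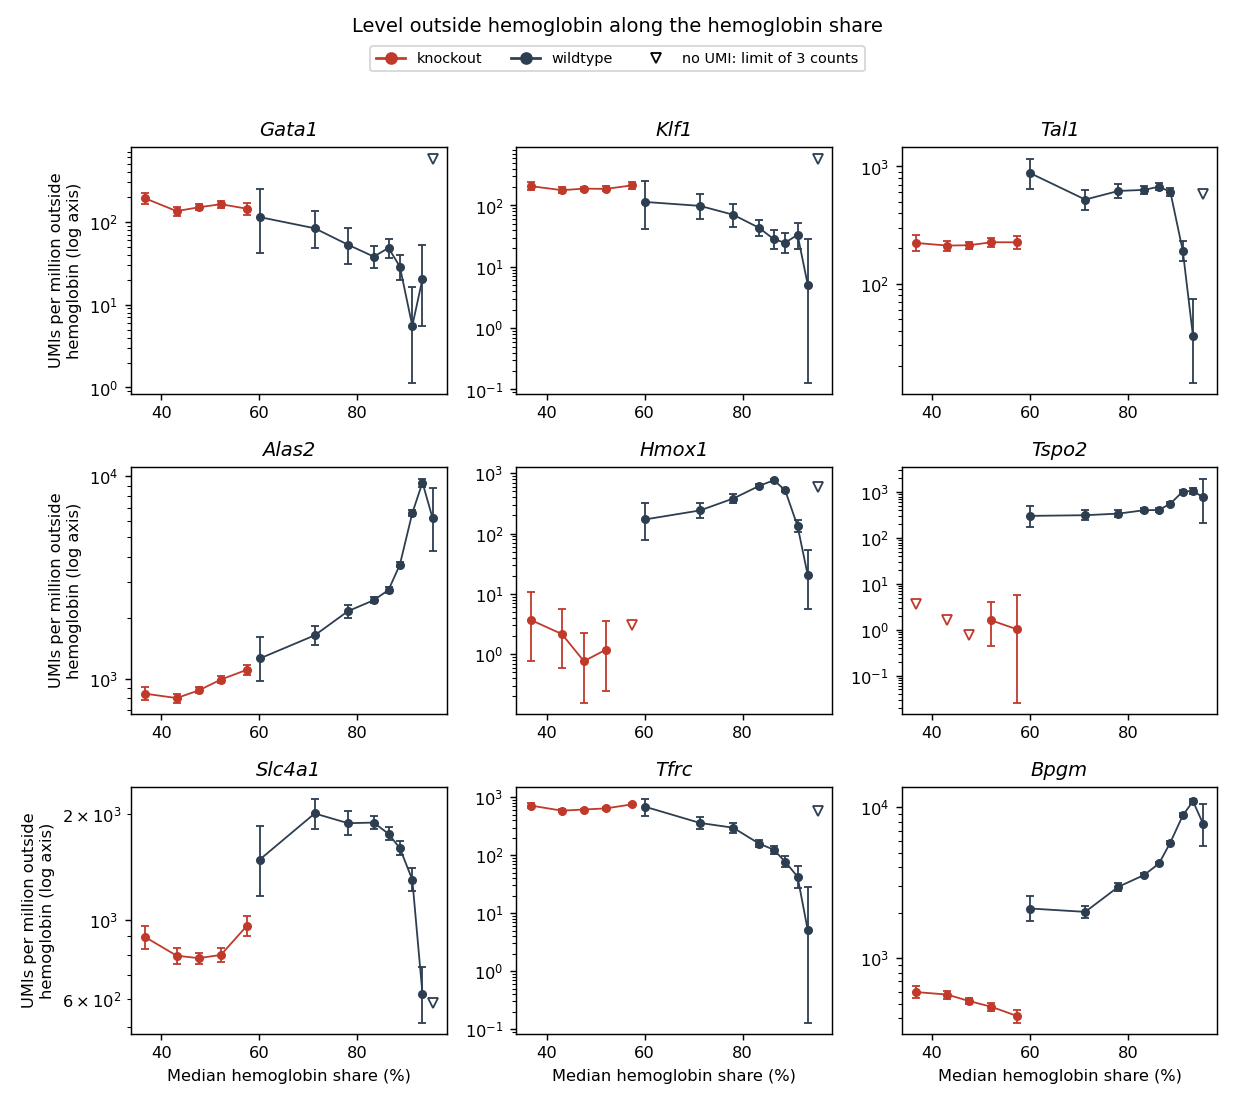
CPM outside hemoglobin (vertical axis, log scale) against the median hemoglobin share of each step (horizontal axis, %), in barcodes with under 5 UMIs of markers of other cells, knockout in red and wildtype in blue, with 95% Poisson intervals; open triangles mark no UMI at the limit of 3 counts. Near 60% the intervals of Gata1, Klf1, Alas2 and Tfrc overlap, with 6 wildtype UMIs each of Gata1 and Klf1, and those of Tal1, Hmox1, Tspo2, Slc4a1 and Bpgm do not.

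The shares of barcodes with a UMI, after each barcode was thinned to 3000 UMIs, gave the background beside the signal. Alas2 was found in 75.5% of knockout barcodes at 40 to 65% [72.7, 78.2] and in 72.5% of wildtype barcodes over 85% [71.1, 73.9], against 0.659% and 2.23% of cardiomyocyte-gated barcodes. Before thinning, these erythroid shares were 99.7% and 92.3%, at median depths of 20362 and 7300 UMIs, and the cardiomyocyte-gated shares 5.93% and 10.49%, at 18641 and 14378. Hmox1 was found in 0.203% of those knockout barcodes [0.0246, 0.732], below the 2.31% of cardiomyocyte-gated barcodes of the same library, and in 8.83% of the wildtype barcodes, above 2.07%. Tspo2 was found in 0.102% of the knockout barcodes [0.00257, 0.564], where 0 of 607 cardiomyocyte-gated barcodes held it, which allows up to 0.494%, and in 18.6% of the wildtype barcodes, above 0.159%. The Hmox1 share of knockout erythroid barcodes is therefore not read as expression, and the Tspo2 share lies under the limit that the 0 of its comparison gate allows. Tfrc was found in 61.9% of those knockout barcodes and 2.37% of those wildtype barcodes, where 21.1% and 17.5% of cardiomyocyte-gated barcodes held it. Outside hemoglobin the order was the reverse in the library labelled wildtype, where Tfrc stood at 83.0 CPM [73.7, 93.2] in erythroid barcodes over 85%, above its cardiomyocyte-gated level given below.

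RNA outside cells, taken from barcodes of at most 100 UMIs, carried the genes at levels that differ between the libraries. Hemoglobin made up 7.34% of it in the library labelled knockout and 26.3% in the library labelled wildtype. Tspo2 stood in it at 0.312 against 22.5 CPM, Bpgm at 49.0 against 227.6, Gata1 at 19.6 against 4.40 and Tfrc at 71.1 against 20.9. Free RNA could make up at most 33.4% of UMIs at 20 to 40% and 1.57% at 40 to 65% in the library labelled knockout, against 71.5% and 19.6% in the library labelled wildtype, and its part in the lower wildtype bins was not tested. With these upper shares of free RNA subtracted, 7.41 of 11 Hmox1 UMIs and 5.90 of 6 Tspo2 UMIs were left in the library labelled knockout at 40 to 65%, and the log2 ratios were -7.38 and -7.65.

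On either side of the 20% limit, Alas2 stood at 224.2 CPM in knockout barcodes of 15 to 20% hemoglobin and 260.9 in those of 20 to 25%, and at 168.2 and 204.6 in wildtype barcodes. Bpgm stood at 137.5 and 195.9 labelled knockout and at 207.8 and 239.7 labelled wildtype. Tspo2 had 0 UMIs in both knockout ranges and 14 and 26 in the wildtype ranges.

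Outside erythroid barcodes, 4 of the genes are given in other cell classes, in barcodes with under 1% hemoglobin. Hmox1 stood at 637.7 CPM in macrophage-gated barcodes labelled knockout (37 barcodes, 524 UMIs) and 319.4 in those labelled wildtype (220 barcodes, 708 UMIs), so the gene was measured in the library whose erythroid barcodes lacked it. Tal1 stood at 54.5 and 54.9 in endothelial-gated barcodes, and Tfrc at 77.9 and 66.1 in cardiomyocyte-gated barcodes. Megakaryocyte-gated barcodes held Gata1 at 134.8 CPM labelled knockout (115 barcodes) and 30.3 labelled wildtype (62 barcodes), Tal1 at 189.6 and 69.4, and Hmox1 at 8.77 and 160.2.

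Tspo2 was also found in a small set of barcodes with erythroid markers and under 1% hemoglobin. In the library labelled knockout 91 such barcodes held 45 UMIs of it, 17.6 CPM, which is above its level in the knockout bins of 20 to 65%. They also held Gata1 at 149.6, Klf1 at 157.8 and Tfrc at 231.2, with Alas2 at 7.42 and Slc4a1 at 1.56. In the library labelled wildtype 21 such barcodes held 4 UMIs of Tspo2, 18.2 CPM, with Gata1 at 50.2 and Klf1 at 41.1.

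Other genes of the same pathways came from 3 lists of 20, which also hold 9 of the 10 erythroid markers. Those of heme synthesis and iron were higher in the library labelled knockout when every barcode of the 40 to 65% bin was taken. Of 20 genes of this list with at least 50 UMIs, 12 were at least 2-fold higher and 0 lower, beside 9.72% and 42.0% of all genes, with a median log2 ratio of 1.30 beside -0.67 for all genes. Cpox, an enzyme late in heme synthesis, stood at 448.0 against 63.3 CPM (2.82 [2.62, 3.04]) and Steap3, the reductase that frees transferrin iron, at 43.2 against 6.33 (2.77 [2.12, 3.51]). Lowest were Ireb2, an iron-sensing regulator, at -0.79 [-1.13, -0.44], and Ftl1, the ferritin light chain, at -0.14 [-0.17, -0.11]. With barcodes carrying other markers left out, 2 were higher and 1 lower, beside 15.1% and 27.8% of all genes, with a median of 0.03 beside -0.26. There Cpox had 0.34 [0.04, 0.66] and Steap3 1.40 [0.04, 3.28], the latter on 4 wildtype UMIs. Ireb2 changed sign, to 1.07 [-0.80, 4.12] on 2 wildtype UMIs, and Ftl1 had -0.69 [-0.77, -0.61]. Over all erythroid barcodes outside hemoglobin, 6 were higher and 5 lower, beside 39.1% and 24.2% of all genes.

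Of 19 measured genes of the membrane and its skeleton, 11 were at least 2-fold higher and 1 lower at 40 to 65%, beside 9.72% and 42.0% of all genes, with a median of 1.36. Sptb, the beta chain of erythroid spectrin, had a log2 ratio of 2.37 [2.14, 2.62], and Tspan33, a tetraspanin of erythroid precursors, 2.36 [2.01, 2.74]. Mpp1, the skeletal protein p55, stood at 1.19 against 38.0 CPM (-4.99 [-5.68, -4.36]), and over all erythroid barcodes at 1.12 against 35.9 (-5.00 [-5.68, -4.40]). Cd47, the surface signal against engulfment, had -0.84 [-1.09, -0.59]. Without barcodes carrying markers of other cells, 0 of 18 were higher and 5 lower, with a median of -0.50, beside 15.1% and 27.8% of all genes, so the share of lower genes was near that of all genes. There Sptb had -0.12 [-0.46, 0.24], Tspan33 -0.23 [-0.73, 0.31] and Cd47 -2.74 [-3.15, -2.30].

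Of 18 measured genes of the erythroid transcription list, 4 were at least 2-fold higher and 3 lower at 40 to 65%, beside 9.72% and 42.0% of all genes, with a median at 0.00 to 2 decimals. Hemgn, a nuclear protein of blood cells, had 3.53 [3.30, 3.78] and Epor, the erythropoietin receptor, 3.49 [2.79, 4.30]. Nfia stood at 3.72 against 381.3 CPM (-6.68 [-7.03, -6.35]) and Sox6, a factor that represses embryonic globin, at 2.24 against 112.5 (-5.65 [-6.12, -5.21]). Sox6 kept a log2 ratio of -6.72 [-7.33, -6.12] without barcodes carrying markers of other cells (41 against 59 UMIs), and Nfia had -3.34 [-4.41, -2.06]. Hemgn had 0.74 [0.44, 1.07] in these barcodes and Epor 1.90 [0.54, 3.78], the latter on 4 wildtype UMIs. There 1 of 17 genes of the list was higher and 7 lower, beside 15.1% and 27.8% of all genes, with a median of -0.67 beside -0.26.

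Genes whose level outside hemoglobin followed each of the 9 most closely were sought over the 8 combinations of bin and library, among 5892 genes, with Pearson's r as a description. These points share their libraries, and 2 of them rest on 2 barcodes each. Gata1 was followed most closely by Epor (r = 0.986) and Mt2, and Klf1 by Mt2 (0.984) and Hemgn. Tfrc was followed by Cpox (0.990) and Slc25a21. Hmox1 was followed by Chrna7 (0.999) and Tcp11l2, and Tspo2 by Tecta and Chrna7 (both 0.994). Tal1 was followed by Fam210b (0.997) and Slc20a1, Slc4a1 by Narf (0.996) and Reln, Alas2 by Rec114 (0.974) and Creg1, and Bpgm by Gabarapl2 (0.989) and Bcl2l1. Without the points of 2 barcodes, these r values lay between 0.967 and 0.998.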

How the data were processed

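The authors deposited UMI counts per gene and barcode for every barcode of both libraries, not normalised, made with Cell Ranger 7.1.0 on build mm10 per the submitters' processing notes. The library labelled knockout held 130039314 UMIs over 1632950 barcodes and the library labelled wildtype 122834180 over 1451246. Mitochondrial limits removed 91 and 44 barcodes of 3000 UMIs or more. How the authors filtered cells, called doublets and clustered was not known here. Counts were summed per bin and library and scaled to CPM, with numpy 2.4.6, scipy 1.17.1 and pandas 2.3.3, and no p-value was computed. A log2 ratio is knockout over wildtype. At least 2-fold was the threshold for counts of genes, among genes with at least 20 UMIs. Positions came from GENCODE vM21.

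Doublets were kept, and removed only as an alternative, by a rewritten form of the Scrublet method at 0.8% per 1000 barcodes (2000 variable genes, 30 components), which took 285 knockout (4.77%) and 982 wildtype barcodes (8.86%). Markers of other cells were 41 genes of cardiomyocytes, endothelium, mesenchyme, epicardium, macrophages, megakaryocytes and liver. Gates on cells of low hemoglobin were shares of UMIs on a marker list, 1% for cardiomyocytes, 0.5% for mesenchyme, 0.3% for epicardium, 0.2% for macrophages, megakaryocytes and endothelium, and 0.05% for erythroid markers. Named genes of 3 lists of 20 were the 2 highest and the 2 lowest log2 ratios at 40 to 65% with at least 50 UMIs. Likeness of genes was taken on log2 of CPM outside hemoglobin plus 10, among genes with at least 400 UMIs. The 9 genes, the lists and the bins were chosen with earlier results of these data known. A ratio was planned for each bin but was not formed over 65%, where the library labelled knockout held 2 barcodes per bin. The ratio calculation was tested on simulated counts.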

Additional observations from a re-analysis of the deposited data

How the results depend on the processing

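No paired analysis was possible because each genotype had 1 library. The median log2 ratio of the 9 genes at 20 to 40%, 0.97, became 1.68 with doublet scores removed, 1.40 thinned to 3000 UMIs and 1.40 relative to the median gene. At 40 to 65%, 0.60 became -0.57 with doublet scores removed, 0.34 thinned, 0.43 as a mean over barcodes, 1.26 relative to the median gene, -0.93 without barcodes with 5 UMIs or more of markers of other classes and -0.72 where blood progenitor markers were not among these. Genes at least 2-fold higher at 40 to 65%, 3 of 9, became 0 under the doublet removal and under both marker filters and 5 relative to the median gene, and those lower, 2 of 9, became 4 under the doublet removal and both marker filters. The doublet removal took 186 of 239 wildtype barcodes and 1 of 985 knockout barcodes at 40 to 65%. Of all genes at 20 to 40%, 1832 were higher and 7677 lower with at least 1 UMI, where 641 and 3451 were with at least 20, and at 40 to 65% 11121 were lower instead of 4878. Over all erythroid barcodes outside hemoglobin, 2748 lower genes became 1670 with at least 50 UMIs and 8143 with at least 1. The cause of these moves was not tested, apart from the number of genes entering a filter.

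Under all alternatives run at 40 to 65%, Hmox1 stayed between -8.57 and -6.00 and Tspo2 between -8.68 and -6.82, while Gata1 ran from 0.00 to 3.84, Klf1 from 0.61 to 3.55, Tfrc from 0.05 to 3.31, Tal1 from -1.57 to 0.98, Alas2 from -0.20 to 1.26, Slc4a1 from -0.93 to 1.47 and Bpgm from -1.63 to -0.01. At 20 to 40%, no ratio without markers of other classes was formed, since 4 wildtype barcodes were left and 10 were required. Of the other values, 177 moved beyond their counting interval and 227 did not. Depth limits the wildtype side, which held 15 UMIs of Gata1 and 12 of Klf1 at 40 to 65% without barcodes carrying markers of other cells. Pooled hearts and 1 library per genotype leave genotype, litter and preparation inseparable.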
